A study of Homo sapiens with 35 samples.

Results

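The 9 genes described here, MDM2, CDKN1A, BTG2, TP53INP1, GDF15, SESN1, PHLDA3, ZMAT3 and RRM2B, are widely used as readouts of the transcription factor p53. They were taken by gene name from 2 deposited tables of read counts with the same 59428 gene rows, and all 9 had a row in both. The counts came from poly(A) RNA of 4 human acute myeloid leukaemia lines in which guide RNAs targeted SUV39H1, alone or with SUV39H2. The products of both genes write the heterochromatin mark H3K9me3. The series title asks whether that mark restrains an immune response to transposable elements, and the p53 genes are a side view of the same libraries.

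The 35 libraries formed 13 groups. U937 and THP-1 cells each gave 3 libraries with a control guide (sgControl), 3 labelled SUV39H1 single knockout (SKO) and 3 labelled SUV39H1/2 double knockout (DKO). U937 cells under TPA gave another 3 libraries of each kind. TPA is the usual abbreviation of a phorbol ester that makes U937 cells differentiate, but the labels neither spell it out nor give a dose or time. MOLM-13 was represented by 2 libraries each of sgControl and SKO, and OCI-AML-3 by 2 each of sgControl and DKO. Names of the untreated U937 and THP-1 libraries call the SUV39H1 guide sgSUV39H1-3, and their THP-1 and U937 DKO names add sgSUV39H2-1 and sgSUV39H2-3, while names of the other libraries number no guide. THP-1 sgControl and SKO names carry clone 1 and untreated U937 DKO names carry clone 3, so such a group may be 1 clone. DKO names of THP-1 carry another date code than the sgControl and SKO names, and those of U937 carry none, so the date code and the DKO label cannot be told apart. No label says that replicates were separate cultures. Each p-value therefore rests on library-to-library spread, some or all of which may be technical.

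p53 is a DNA-binding tumour suppressor that is stabilised by DNA damage and other stress and then switches on a set of target genes. MDM2, a ubiquitin ligase, is one of those targets and also the main brake on p53. CDKN1A encodes p21, an inhibitor of cyclin-dependent kinases that halts the cell cycle, and it can also be switched on without p53, for example during myeloid differentiation.

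The sequence before 2 start sites is shown because CDKN1A and MDM2 moved apart in untreated U937 and together in MOLM-13 and OCI-AML-3. Both come from RefSeq on GRCh38.p14, and both lie between annotated exons of their gene in the deposited annotation, since longer transcripts start farther upstream. The first lies at chr6:36678464-36678709 on the plus strand, before the CDKN1A start at 36678714, and its capitals mark GC boxes (the letters GGGCGG or CCGCCC, so that both strands are covered). The second lies at chr12:68808767-68809001 on the plus strand, before the inner MDM2 start at 68809017, and its capitals mark a match to the p53 consensus.
CDKN1A upstream: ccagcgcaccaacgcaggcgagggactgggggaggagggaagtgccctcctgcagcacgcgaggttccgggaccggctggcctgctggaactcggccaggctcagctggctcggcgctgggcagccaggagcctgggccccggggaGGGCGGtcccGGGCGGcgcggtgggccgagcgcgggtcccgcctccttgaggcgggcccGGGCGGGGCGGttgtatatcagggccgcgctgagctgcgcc
MDM2 inner start upstream: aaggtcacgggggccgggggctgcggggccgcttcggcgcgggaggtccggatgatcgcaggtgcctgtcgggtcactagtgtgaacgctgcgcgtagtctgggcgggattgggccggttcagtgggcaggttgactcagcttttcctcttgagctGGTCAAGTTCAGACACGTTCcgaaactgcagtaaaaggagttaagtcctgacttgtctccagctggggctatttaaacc
The consensus is 20 bases long, made of 2 adjacent half-sites with C required at the fourth and G at the seventh position of each, and up to 3 mismatches were allowed elsewhere. It was searched in windows from 250 bases before to 50 bases after each start. The CDKN1A window held 4 GC boxes, of which the last 2 share 1 base, and no consensus match. The MDM2 match began 94 bases before the inner start and had 2 mismatches. By textbook knowledge the p53 sites of CDKN1A lie farther upstream, outside this window. RefSeq windows were found for 6 of the 9 genes (MDM2, CDKN1A, BTG2, GDF15, SESN1 and ZMAT3). Only the windows of MDM2, GDF15 and SESN1 among these held a match, and the 3 matches are set side by side with the 4 required letters in capitals.
MDM2 p53 match: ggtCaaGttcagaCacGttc
GDF15 p53 match: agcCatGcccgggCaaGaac
SESN1 p53 match: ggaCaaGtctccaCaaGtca
They lie at chr12:68808923-68808942 (plus strand), chr19:18386186-18386205 (plus strand, starting at base 29 after the start site) and chr6:109009018-109009037 (minus strand, 49 bases before an inner start). The GDF15 and SESN1 matches had 3 mismatches each. Of all 35116 RefSeq windows, 1.12% held a match with up to 3 mismatches, 0.285% held one with up to 2, 45% held a GC box and 9.06% held more than 3 GC boxes. A match of letters shows no binding, and nothing was measured on binding here.

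Counted reads per library ran from 31985767 to 61178704. SUV39H1 itself did not follow the labels in every line. Its log2 fold change against sgControl was 0.76 (SKO) and 0.32 (DKO) in untreated U937, 1.44 and 0.75 in THP-1, 0.55 and -0.71 in U937 under TPA, -1.90 in MOLM-13 SKO and -3.35 in OCI-AML-3 DKO. SUV39H2 in DKO against sgControl had log2 fold changes of -0.39 in U937, -1.11 in THP-1, -1.01 in U937 under TPA and -0.33 in OCI-AML-3. Read counts per gene do not show whether a guide cut its target, so groups are named by label throughout. The summed level of 10 myeloid marker genes was 573 to 1654 CPM (read counts scaled to library size) over the U937 and THP-1 libraries (by group beside the results), 1508 to 1566 and 8705 to 8811 CPM in MOLM-13 sgControl and SKO, and 887 to 914 and 1906 to 1940 CPM in OCI-AML-3 sgControl and DKO. Of 10 markers of other cell types, PECAM1, which monocytes also express, reached 677 CPM, no other passed 5.84 CPM in any library, and HBG1 had 0 reads. Because each library is bulk RNA, fewer cells of a kind and less RNA per cell cannot be told apart. Untreated U937 and THP-1 stand in 1 count table and all other groups in the other, so table and line (or table and TPA) cannot be told apart between them.

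CDKN1A, at chr6:36676460-36687337 on the plus strand (hg38), had a separate level in nearly every group. In U937 its level was 4.99, 3.63 and 4.31 CPM in the 3 sgControl libraries, 12.9, 12.2 and 14.2 CPM in SKO and 14.7, 13.4 and 14.2 CPM in DKO. In THP-1 it was 142, 128 and 122 CPM in sgControl, 20.3, 22.3 and 21.01 CPM in SKO and 38.2, 41.1 and 41.7 CPM in DKO. The direction was therefore upward in U937 and downward in THP-1, with no overlap between sgControl and either knockout label. Under TPA, U937 stood at 100.3, 100.8 and 98.1 CPM in sgControl, 388, 386 and 398 CPM in SKO and 1142, 1248 and 1285 CPM in DKO, the highest levels of any group. MOLM-13 went from 186 and 192 CPM in sgControl to 765 and 764 CPM in SKO, and OCI-AML-3 from 28.2 and 26.8 CPM in sgControl to 232 and 244 CPM in DKO. Ordered by mean, the groups ran from U937 DKO under TPA through MOLM-13 SKO, U937 SKO under TPA, OCI-AML-3 DKO, MOLM-13 sgControl, THP-1 sgControl, U937 sgControl under TPA, THP-1 DKO, OCI-AML-3 sgControl, THP-1 SKO, U937 DKO and U937 SKO down to U937 sgControl. Of the 12 neighbouring pairs in this order, only U937 DKO and U937 SKO overlapped.

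**Figure D1:**
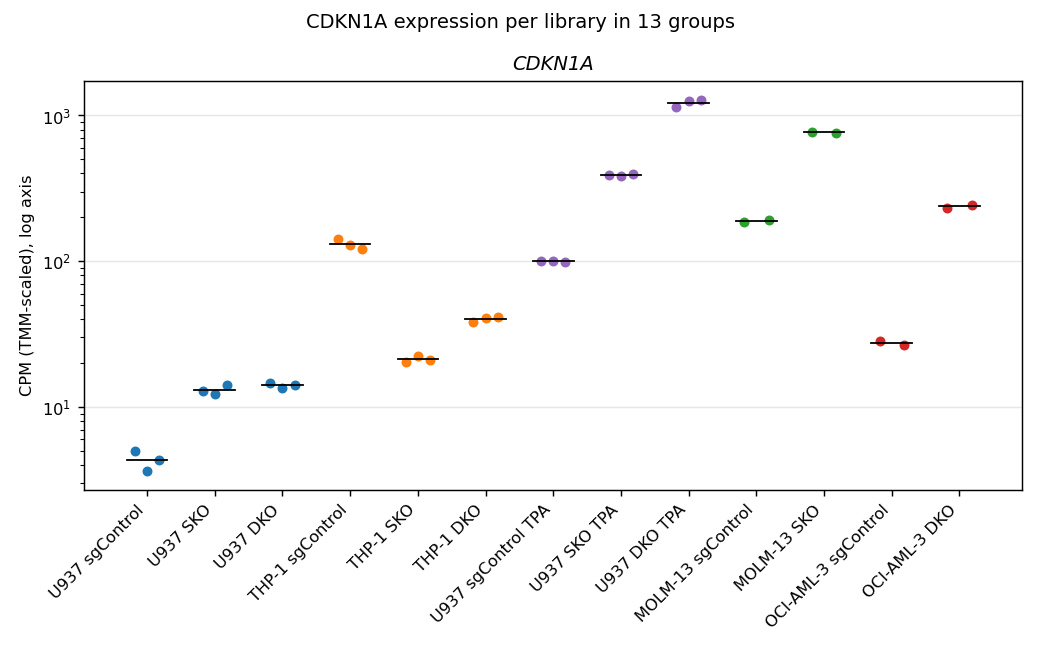
CDKN1A in all 35 libraries on a log axis of CPM scaled over all libraries, by group. Points are libraries and black bars group means. CDKN1A runs from 4.31 CPM on average in U937 sgControl to 1225 CPM in U937 DKO under TPA.

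In MOLM-13, 9 of the 9 genes were higher in the SKO libraries than in sgControl. Of all genes tested in that line, 31.8% were called higher and 32.2% lower (edgeR adjusted p below 0.05). The values after ± on log2 fold changes are standard errors. MDM2 stood at 92.4 and 89.97 CPM in sgControl and 156 and 167 CPM in SKO, a log2 fold change of 0.84 ± 0.04 (edgeR adjusted p = 7.2e-19). CDKN1A had a log2 fold change of 2.03 ± 0.03 (edgeR adjusted p = 8.6e-32). BTG2, an antiproliferative cofactor of mRNA decay, went from 13.5 and 14.1 CPM to 75.9 and 79.6 CPM, a log2 fold change of 2.50 ± 0.06 (edgeR adjusted p = 5.3e-26). These 3 genes, the feedback regulator and both cell cycle inhibitors, had no overlap between the groups. TP53INP1, a nuclear protein of stress-induced death and autophagy, went from 20.3 and 23.1 CPM to 57.3 and 61.9 CPM, a log2 fold change of 1.47 ± 0.06 (edgeR adjusted p = 1.7e-19). PHLDA3, a repressor of AKT signalling, went from 23.5 and 24.6 CPM to 34.9 and 40.9 CPM, a log2 fold change of 0.67 ± 0.07 (edgeR adjusted p = 5.2e-10). ZMAT3, an RNA-binding regulator of splicing, went from 29.9 and 27.3 CPM to 58.6 and 61.4 CPM, a log2 fold change of 1.08 ± 0.06 (edgeR adjusted p = 6.6e-17). Both SKO libraries lay above both sgControl libraries for each of these genes as well. The share of all genes whose groups did not overlap was not counted for any comparison, so statements on overlap only describe the libraries.

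SESN1, a sestrin that restrains mTORC1 under stress, stood at 42.3 and 47.7 CPM in MOLM-13 sgControl and 71.1 and 71.6 CPM in SKO, a log2 fold change of 0.67 ± 0.05 (edgeR adjusted p = 4.2e-13). GDF15, a secreted stress cytokine, was barely present: it had 0 and 4 reads in sgControl and 17 and 26 reads in SKO. Its log2 fold change of 3.57 ± 0.78 (edgeR adjusted p = 2.0e-04) became 2.74 without sgControl replicate 1 and 7.44 without replicate 2, the latter against 0 reads and so set by the prior count of the fit. RRM2B, the p53-inducible small subunit of ribonucleotide reductase, moved least, from 172 and 191 CPM to 193 and 204 CPM. Its log2 fold change of 0.14 ± 0.04 (edgeR adjusted p = 9.3e-04) did not hold without sgControl replicate 1, at 0.07 (edgeR adjusted p = 0.17), or in a fit of all 35 libraries, at 0.13 (edgeR adjusted p = 0.1). Where 1 of 2 libraries is left out, the one that remains is assumed to vary like the other groups. The 8 genes other than CDKN1A had a median log2 fold change of 0.96, against 0.023 over all genes tested, and CDKN1A ranked 3 of 9 by size.

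In OCI-AML-3 all 9 genes moved in the same direction as in MOLM-13, and for 7 of them the fold change was larger, a difference that was not tested. MOLM-13 carried the SKO label only and OCI-AML-3 the DKO label only, so line and knockout label cannot be told apart between them. The DKO libraries were called higher for 9 of 9, where 24.3% of all genes tested were called higher and 25.6% lower. MDM2 went from 59.6 and 65.4 CPM to 119 and 114 CPM, a log2 fold change of 0.91 ± 0.06 (edgeR adjusted p = 6.8e-18). CDKN1A had the largest change of the 9, with a log2 fold change of 3.12 ± 0.06 (edgeR adjusted p = 1.5e-39). BTG2 went from 14.98 and 13.3 CPM to 46.96 and 47.1 CPM, a log2 fold change of 1.74 ± 0.08 (edgeR adjusted p = 4.6e-24). TP53INP1 started low, at 3.17 and 2.46 CPM, and reached 19.1 and 16.6 CPM, a log2 fold change of 2.68 ± 0.13 (edgeR adjusted p = 2.6e-23). Each of these genes had both DKO libraries above both sgControl libraries. PHLDA3 went from 11.6 and 10.6 CPM to 40.3 and 44.04 CPM, a log2 fold change of 1.94 ± 0.09 (edgeR adjusted p = 7.7e-25). GDF15, with 46 and 44 reads in sgControl and 273 and 339 in DKO, had a log2 fold change of 2.72 ± 0.20 (edgeR adjusted p = 9.7e-17).

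SESN1 went from 22.8 and 22.2 CPM in OCI-AML-3 sgControl to 45.6 and 41.8 CPM in DKO, a log2 fold change of 0.97 ± 0.08 (edgeR adjusted p = 1.9e-15). ZMAT3 went from 17.1 and 18.4 CPM to 76.3 and 72.8 CPM, a log2 fold change of 2.08 ± 0.07 (edgeR adjusted p = 4.4e-29), the highest ZMAT3 level of any group. RRM2B went from 49.9 and 48.4 CPM to 88.1 and 78.8 CPM, a log2 fold change of 0.77 ± 0.07 (edgeR adjusted p = 1.4e-14). The median log2 fold change of the 8 genes other than CDKN1A was 1.84, against 0.016 over all genes tested. With 1 DKO library left out 9 of 9 were still called, although the number of all genes called fell from 8065 to 5236 (replicate 1) or 5020 (replicate 2).

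The genes higher in both MOLM-13 SKO and OCI-AML-3 DKO included 9 of these 9, against 16.3% of the 14131 genes tested in both lines (2304 genes). The share of all genes lower in both was 19.4% (2744 genes). Of 34 other p53 target genes tested in both, taken from a list of 35, 19 were higher in both and 2, CDIP1 and E2F7 (named after their values were seen), were lower in both. Of all genes tested 31.8% were called higher and 32.2% lower in MOLM-13 alone, and 24.3% and 25.6% in OCI-AML-3 alone. In MOLM-13 21 of the 34 other targets were called higher and 8 lower, with a median log2 fold change of 0.37. The 8 lower became 4 in a fit of all 35 libraries. Among the higher ones EDA2R, a receptor of the TNF receptor family, had a log2 fold change of 2.43 ± 0.15 (edgeR adjusted p = 3.9e-15). TP53I3, an oxidoreductase, had one of 2.50 ± 0.32, and FUCA1, a lysosomal fucosidase, one of 1.92 ± 0.05. In OCI-AML-3 25 were called higher and 4 lower, with a median of 0.54, led by EDA2R at 4.22 ± 0.47, CMBL at 3.08 ± 0.47 and CYFIP2 at 2.98 ± 0.12. The 4 lower in OCI-AML-3 became 2 without the filter on low counts or without DKO replicate 2. MDM4, a relative of MDM2 that also holds p53 in check, had log2 fold changes of -0.03 ± 0.06 (edgeR adjusted p = 0.65) in MOLM-13 and 0.22 ± 0.06 (edgeR adjusted p = 0.0026) in OCI-AML-3. It was higher in THP-1, at 0.66 ± 0.07 (edgeR adjusted p = 4.7e-09) in SKO and 1.38 ± 0.07 (edgeR adjusted p = 1.6e-16) in DKO, where MDM2 and CDKN1A were lower. In U937 its changes were 0.06 ± 0.08 (edgeR adjusted p = 0.51) and 0.02 ± 0.08 (edgeR adjusted p = 0.8) untreated and -0.18 ± 0.06 (edgeR adjusted p = 0.01) and -0.24 ± 0.06 (edgeR adjusted p = 4.6e-04) under TPA. The 24 cell cycle genes known to be repressed downstream of p21 were all called lower in both lines, with a median log2 fold change of -1.56 in MOLM-13 and -1.05 in OCI-AML-3, and CCNA2, cyclin A2, fell by 1.89 ± 0.04 and 1.32 ± 0.06. Whether their changes are linked to CDKN1A was not tested in any line or treatment. Of the inhibitors of cyclin-dependent kinases other than CDKN1A, 0 of 4 tested were higher and 3 lower in MOLM-13 (31.8% and 32.2% of all genes). In OCI-AML-3 2 of 6 were higher and 4 lower (24.3% and 25.6% of all genes). The 2 higher in OCI-AML-3 became 1 by DESeq2, without the filter on low counts, with all 35 libraries, and without sgControl replicate 2, DKO replicate 1 or DKO replicate 2. Alongside, 8 of 9 myeloid markers in MOLM-13 and 6 of 10 in OCI-AML-3 were higher, beside 31.8% and 24.3% of all genes. The summed level of 9 mitochondrially encoded genes, taken as a sign of RNA quality, was 52630 to 55060 CPM in sgControl and 73620 to 73690 CPM in SKO of MOLM-13, and 42740 to 44300 CPM in sgControl and 50850 to 52000 CPM in DKO of OCI-AML-3. The part of marker genes and RNA quality in the changes of the 9 genes was not tested.

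**Figure D2:**
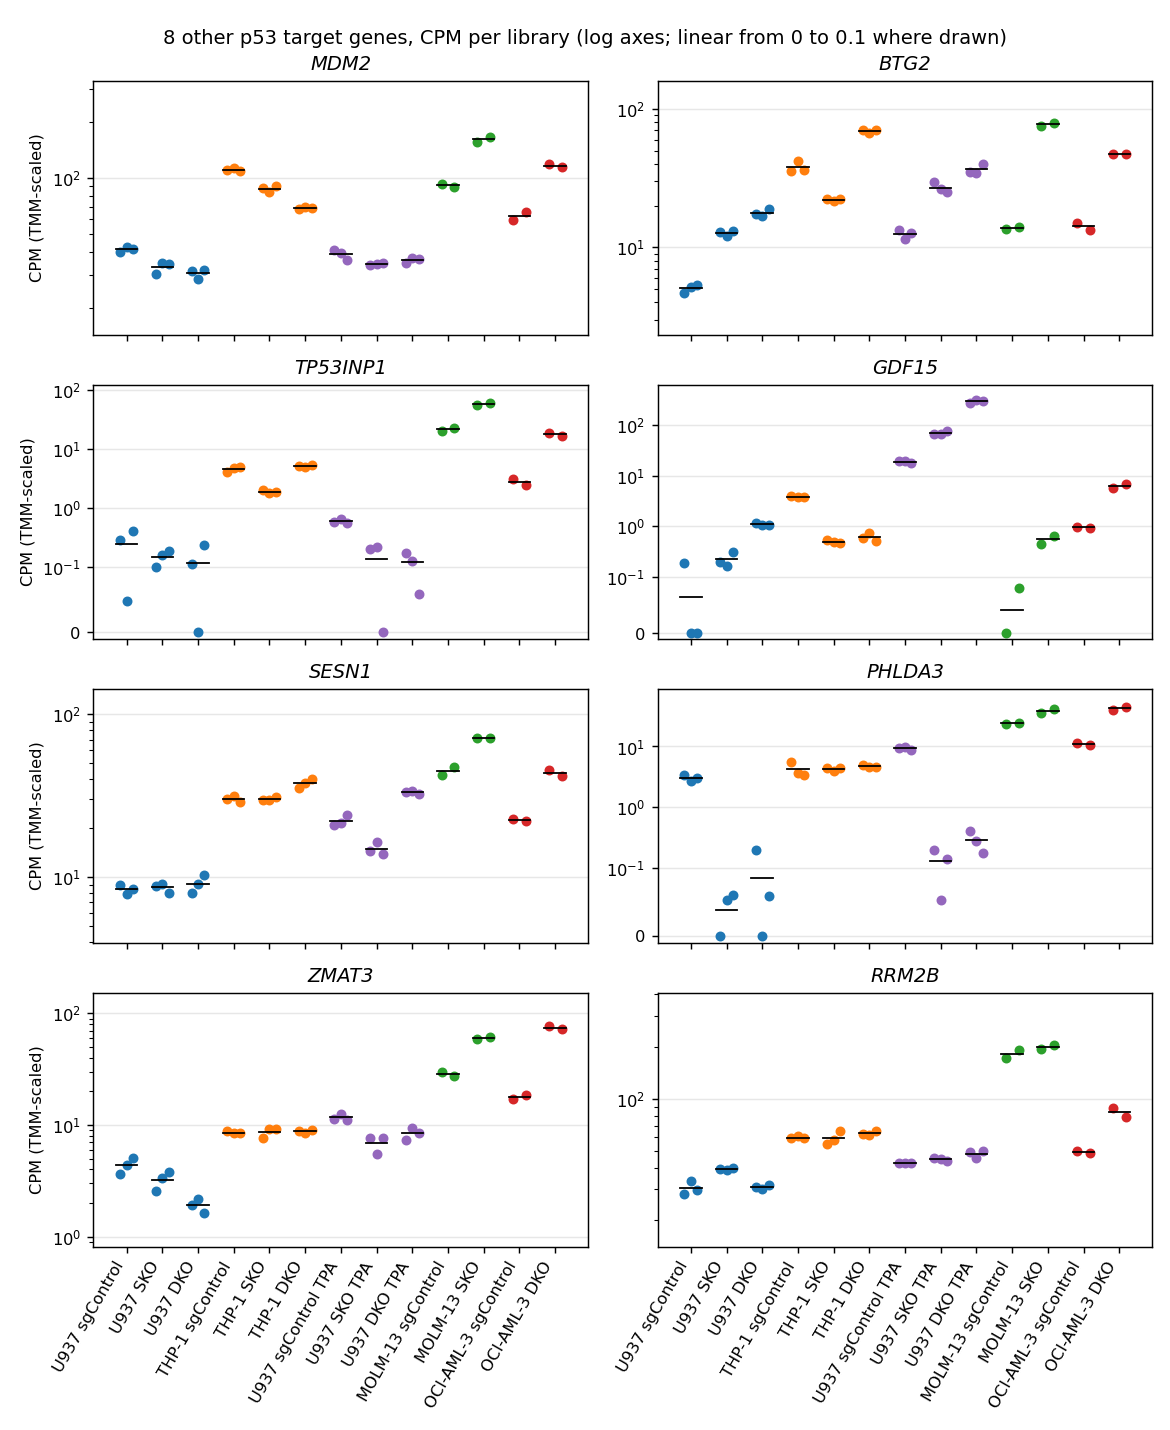
Levels in CPM of MDM2, BTG2, TP53INP1, GDF15, SESN1, PHLDA3, ZMAT3 and RRM2B in all 35 libraries by group. Points are libraries and black bars group means; axes are logarithmic, and those of TP53INP1, GDF15 and PHLDA3 are linear from 0 to 0.1 CPM. In each panel the MOLM-13 SKO points lie above MOLM-13 sgControl and the OCI-AML-3 DKO points above OCI-AML-3 sgControl.

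In untreated U937, 8 of the 9 could be tested, and TP53INP1, at 0 to 14 reads per library, could not. In SKO against sgControl 3 were called higher and 3 lower, where 30.7% of all genes tested were higher and 31.2% lower. In DKO the counts were again 3 higher and 3 lower, beside 33.2% and 34.5% of all genes. Counts of either sign were thus near those of all genes, and only the values of single genes are described. CDKN1A rose by 1.60 ± 0.11 (edgeR adjusted p = 4.0e-13) in SKO and 1.70 ± 0.11 (edgeR adjusted p = 6.3e-14) in DKO on the log2 scale. BTG2 rose with it, from 4.66, 5.19 and 5.37 CPM in sgControl to 12.9, 11.97 and 13.1 CPM in SKO and 17.4, 16.8 and 18.9 CPM in DKO, log2 fold changes of 1.32 ± 0.10 (edgeR adjusted p = 1.7e-12) and 1.80 ± 0.10 (edgeR adjusted p = 7.2e-16). MDM2, the feedback regulator, went the other way. It stood at 40.04, 42.6 and 41.2 CPM in sgControl, 30.2, 34.99 and 34.2 CPM in SKO and 31.4, 28.6 and 31.9 CPM in DKO, log2 fold changes of -0.32 ± 0.06 (edgeR adjusted p = 7.5e-05) and -0.44 ± 0.06 (edgeR adjusted p = 8.0e-07).

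PHLDA3 was nearly lost from U937 with either knockout label. It stood at 3.35, 2.71 and 3.03 CPM in the sgControl libraries and had 0, 2 and 2 reads (0, 0.0534 and 0.0608 CPM) in SKO and 7, 0 and 2 reads (0.199, 0 and 0.0582 CPM) in DKO. The log2 fold changes were -6.26 ± 0.55 (edgeR adjusted p = 4.7e-11) in SKO and -5.12 ± 0.48 (edgeR adjusted p = 1.6e-10) in DKO. At so few reads their size rests on single libraries: the SKO value was -5.65 without SKO replicate 1, and the DKO value was -6.60 without DKO replicate 1 and -4.51 without DKO replicate 2. ZMAT3 fell in DKO, from 3.66, 4.34 and 5.03 CPM to 1.93, 2.19 and 1.63 CPM, a log2 fold change of -1.17 ± 0.19 (edgeR adjusted p = 3.2e-06). In SKO, at 2.54, 3.37 and 3.83 CPM, its groups overlapped, and the log2 fold change of -0.42 ± 0.18 (edgeR adjusted p = 0.041) was not called without sgControl replicate 2 or 3 or SKO replicate 1 or 2 (-0.46 to -0.27, edgeR adjusted p = 0.061 to 0.23) or by DESeq2 (adjusted p = 0.062).

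GDF15 was close to silent in untreated U937, with 8, 0 and 0 reads in sgControl, 8, 6 and 10 in SKO and 40, 40 and 36 in DKO. It rose in DKO, with a log2 fold change of 3.96 ± 0.66 (edgeR adjusted p = 5.3e-06), which was 8.32 without sgControl replicate 1, against 0 reads, and 3.37 without replicate 2. In SKO its log2 fold change of 1.67 ± 0.78 (edgeR adjusted p = 0.065) was past the threshold by DESeq2 (1.74, adjusted p = 0.035), without the filter on low counts (1.67, edgeR adjusted p = 0.044), with all 35 libraries (1.66, edgeR adjusted p = 0.03) and without sgControl replicate 1 (6.04, edgeR adjusted p = 4.4e-04). The other genes in its 20 Mb bin of chromosome 19 had a median log2 fold change that was 0.37 (SKO) and 0.48 (DKO) above that of all genes. RRM2B rose in SKO only slightly, from 28.1, 33.5 and 29.9 CPM to 39.2, 38.99 and 40.02 CPM, a log2 fold change of 0.37 ± 0.06 (edgeR adjusted p = 9.2e-06), and stood at 31.1, 30.3 and 31.8 CPM in DKO (0.02 ± 0.06, edgeR adjusted p = 0.77). SESN1 passed the test under neither label, with log2 fold changes of 0.03 ± 0.11 (edgeR adjusted p = 0.83) and 0.11 ± 0.11 (edgeR adjusted p = 0.4). Between DKO and SKO, where 24.1% of all genes were higher and 24.9% lower, BTG2 (0.48 ± 0.09, edgeR adjusted p = 4.2e-05) and GDF15 (2.29 ± 0.56, edgeR adjusted p = 0.0011) were higher and ZMAT3 (-0.75 ± 0.20, edgeR adjusted p = 0.002) and RRM2B (-0.34 ± 0.06, edgeR adjusted p = 4.1e-05) lower. CDKN1A (0.11 ± 0.10, edgeR adjusted p = 0.41) was not called. Of the 24 cell cycle genes, 23 were lower and 0 higher in DKO against sgControl, beside 34.5% and 33.2% of all genes. In SKO against sgControl 7 were lower and 11 higher, beside 31.2% and 30.7%. Their link to CDKN1A was not tested. The DKO count of 0 higher was 1 without DKO replicate 1. The summed level of the 10 myeloid markers was 573 to 578 CPM in sgControl, 1140 to 1154 CPM in SKO and 1147 to 1200 CPM in DKO, with 6 of 7 tested higher and 1 lower in SKO and 7 higher and 0 lower in DKO, and its part in these changes was not tested.

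In THP-1 the sgControl libraries held high CDKN1A, and libraries with either knockout label held less. In SKO 0 genes were called higher and 5 lower, where 20.6% of all genes tested were higher and 22.8% lower. CDKN1A fell by 2.61 ± 0.06 (edgeR adjusted p = 3.8e-25) on the log2 scale. GDF15 fell with it, from 210, 197 and 184 reads to 28, 28 and 26 reads, a log2 fold change of -2.94 ± 0.25 (edgeR adjusted p = 4.8e-11). TP53INP1 went from 4.16, 4.71 and 4.89 CPM to 2.002, 1.82 and 1.86 CPM, a log2 fold change of -1.27 ± 0.16 (edgeR adjusted p = 9.4e-08). BTG2, at 35.3, 42.2 and 36.2 CPM in sgControl and 22.2, 21.7 and 22.4 CPM in SKO (-0.77 ± 0.06, edgeR adjusted p = 1.4e-11), and MDM2, at 110.1, 113 and 109.7 CPM in sgControl and 88.01, 83.8 and 90.8 CPM in SKO (-0.33 ± 0.04, edgeR adjusted p = 1.9e-07), fell less. None of these 5 genes had overlapping groups. PHLDA3, ZMAT3, SESN1 and RRM2B had log2 fold changes of 0.04 or less and were not called, with edgeR adjusted p-values of 0.8 to 0.97.

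In THP-1 DKO 3 genes were called higher and 3 lower, beside 31.9% and 33.7% of all genes. CDKN1A (log2 fold change -1.59 ± 0.06, edgeR adjusted p = 1.6e-20), GDF15 (-2.57 ± 0.26, edgeR adjusted p = 4.5e-10) and MDM2 (-0.58 ± 0.04, edgeR adjusted p = 1.4e-12) were lower, as in SKO. MDM2 stood at 68.3, 69.97 and 69.2 CPM and GDF15 at 26, 26 and 20 reads. BTG2 turned the other way and reached 70.04, 66.6 and 70.5 CPM, a log2 fold change of 0.97 ± 0.06 (edgeR adjusted p = 1.2e-14). SESN1, at 35.5, 37.6 and 40.1 CPM against 30.4, 31.7 and 28.9 CPM in sgControl, rose by 0.42 ± 0.06 (edgeR adjusted p = 7.8e-07). RRM2B was called at 0.19 ± 0.05 (edgeR adjusted p = 0.0035), and not in a fit of all 35 libraries, at 0.08 (edgeR adjusted p = 0.2). TP53INP1 (0.28 ± 0.15, edgeR adjusted p = 0.11), PHLDA3 (0.28 ± 0.16, edgeR adjusted p = 0.13) and ZMAT3 (0.14 ± 0.11, edgeR adjusted p = 0.25) were not called, and PHLDA3 was called without sgControl replicate 1, at 0.50 (edgeR adjusted p = 0.01). Directly between DKO and SKO, 5 genes were higher and 1 lower, beside 25.3% and 28.5% of all genes: BTG2 (1.74), TP53INP1 (1.55), CDKN1A (1.02), SESN1 (0.41) and RRM2B (0.19, with overlapping groups and 0.09 and not called with all 35 libraries) were higher and MDM2 (-0.24) lower. In THP-1 DKO against sgControl 21 of the 24 cell cycle genes were lower and 2 higher, beside 33.7% and 31.9% of all genes. The 2 higher became 1 without the filter on low counts or without sgControl replicate 1, sgControl replicate 2 or DKO replicate 3, and 0 with all 35 libraries or without DKO replicate 2. In THP-1 SKO against sgControl 12 were lower and 7 higher, beside 22.8% and 20.6% of all genes. The link of these cell cycle genes to CDKN1A was not tested. Mitochondrially encoded genes summed to 49920 to 50850 CPM in THP-1 sgControl and 35770 to 36440 CPM in DKO, and the myeloid markers to 1150 to 1220 CPM in sgControl, 1267 to 1333 CPM in SKO and 1630 to 1641 CPM in DKO. The part of either in these changes was not tested.

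**Figure D3:**
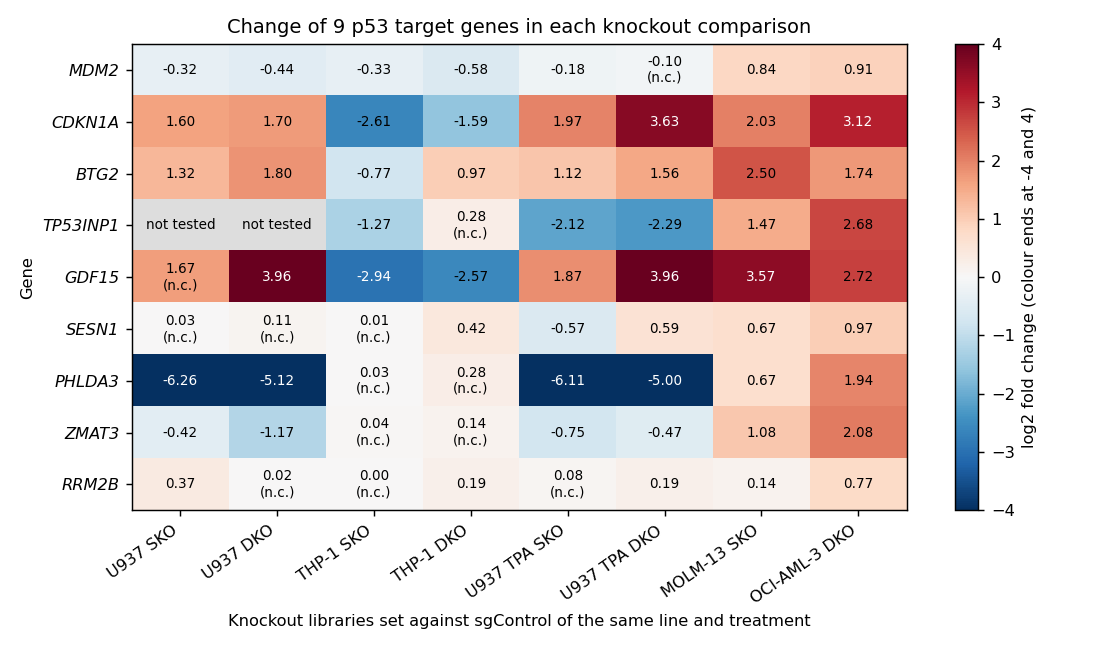
Log2 fold changes of the 9 genes (rows) in the 8 comparisons of a knockout label with sgControl (columns), as colour and number; "n.c." marks values not past an edgeR adjusted p of 0.05. The MOLM-13 and OCI-AML-3 columns are positive for all 9 genes, whereas the 4 U937 columns hold called values of both signs and the THP-1 SKO column holds called values below 0 only.

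Under TPA the knockout labels of U937 again held genes of both directions, on a higher level of CDKN1A. In SKO against sgControl 3 genes were called higher and 5 lower, where 25.8% of all genes were higher and 24.6% lower. In DKO 5 were higher and 3 lower, beside 34.1% and 36.5%. CDKN1A rose by 1.97 ± 0.04 (edgeR adjusted p = 5.6e-25) in SKO and 3.63 ± 0.04 (edgeR adjusted p = 4.4e-31) in DKO. GDF15 rose in step, from 19.8, 18.98 and 17.8 CPM in sgControl to 65.2, 66.6 and 74.8 CPM in SKO and 267, 308 and 301 CPM in DKO, log2 fold changes of 1.87 ± 0.06 (edgeR adjusted p = 1.3e-19) and 3.96 ± 0.06 (edgeR adjusted p = 6.7e-28). BTG2 went from 13.3, 11.4 and 12.6 CPM in sgControl to 29.5, 26.2 and 24.9 CPM in SKO and 34.98, 34.4 and 40.2 CPM in DKO, log2 fold changes of 1.12 ± 0.08 (edgeR adjusted p = 5.9e-12) and 1.56 ± 0.08 (edgeR adjusted p = 1.0e-15). For these 3 genes sgControl, SKO and DKO followed each other without overlap. The median of the GDF15 bin on chromosome 19 was 0.41 and 0.45 above all genes, and that of the CDKN1A bin on chromosome 6 was 0.37 above in DKO.

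PHLDA3 was again almost absent with either label, at 396, 416 and 335 reads in sgControl under TPA, 8, 2 and 6 in SKO and 14, 9 and 6 in DKO. Its log2 fold changes were -6.11 ± 0.26 (edgeR adjusted p = 6.0e-17) and -5.00 ± 0.24 (edgeR adjusted p = 1.6e-16). TP53INP1 fell too, from 24, 28 and 21 reads to 8, 8 and 0 in SKO and 6, 4 and 2 in DKO, log2 fold changes of -2.12 ± 0.65 (edgeR adjusted p = 0.0077) and -2.29 ± 0.68 (edgeR adjusted p = 0.004), and the first was -1.52 (edgeR adjusted p = 0.048) without SKO replicate 3. ZMAT3, at 11.3, 12.6 and 11.2 CPM in sgControl, 7.696, 5.44 and 7.63 in SKO and 7.31, 9.49 and 8.496 in DKO, was lower under both labels (-0.75 ± 0.12, edgeR adjusted p = 8.9e-06 and -0.47 ± 0.12, edgeR adjusted p = 0.0013). SESN1 had opposite signs under the 2 labels: it stood at 21.03, 21.5 and 24.2 CPM in sgControl, 14.6, 16.4 and 13.9 CPM in SKO and 33.2, 34.01 and 32.4 CPM in DKO, log2 fold changes of -0.57 ± 0.08 (edgeR adjusted p = 4.1e-07) and 0.59 ± 0.07 (edgeR adjusted p = 4.4e-08). MDM2 stood at 40.9, 39.5 and 36.3 CPM in sgControl, 33.8, 34.3 and 34.8 CPM in SKO and 34.98, 36.9 and 36.4 CPM in DKO. It was called lower in SKO (-0.18 ± 0.06, edgeR adjusted p = 0.012), but not without sgControl replicate 1 (-0.13, edgeR adjusted p = 0.1) or 2 (-0.16, edgeR adjusted p = 0.051). In DKO it was not called (-0.10 ± 0.06, edgeR adjusted p = 0.13), and was without sgControl replicate 3 (-0.16, edgeR adjusted p = 0.031). RRM2B had log2 fold changes of 0.08 ± 0.05 (edgeR adjusted p = 0.21) and 0.19 ± 0.05 (edgeR adjusted p = 0.0019).

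Between DKO and SKO under TPA 5 genes were higher and 0 lower, beside 31.3% and 32.4% of all genes. GDF15 (2.09 ± 0.05, edgeR adjusted p = 1.9e-22), CDKN1A (1.65 ± 0.04, edgeR adjusted p = 6.8e-24), SESN1 (1.16 ± 0.08, edgeR adjusted p = 1.6e-13) and BTG2 (0.45 ± 0.08, edgeR adjusted p = 1.1e-05) were higher with no overlap. PHLDA3 (1.11 ± 0.45, edgeR adjusted p = 0.035) overlapped, and its call was lost without SKO replicate 2 or 3 or DKO replicate 1 or 2 (0.76 to 1.15, edgeR adjusted p = 0.057 to 0.21). ZMAT3 (0.28 ± 0.13, edgeR adjusted p = 0.055) and RRM2B (0.11 ± 0.05, edgeR adjusted p = 0.063) missed the threshold and passed it by DESeq2 (0.32, adjusted p = 0.037, and 0.15, adjusted p = 0.012). Leaving out 1 library also brought in ZMAT3 (SKO replicate 1 or 3 or DKO replicate 1, 0.35 to 0.37) and RRM2B (DKO replicate 2, 0.15). Against sgControl, the cell cycle genes were lower in TPA DKO for 24 of 24, with a median log2 fold change of -1.69. In TPA SKO 11 of 24 were lower and 4 higher. ATF4 is a factor that can switch on GDF15 and others without p53. The genes linked to it were counted in the knockout and TPA comparisons where GDF15 was called higher or lower. Their part in the GDF15 changes was not tested. In TPA DKO 6 of 10 tested were higher and 2 lower, and ATF3 rose by 3.99 ± 0.05 (edgeR adjusted p = 5.7e-30). In TPA SKO the counts were 5 and 3, and in untreated U937 DKO 7 and 1, each of 10. For TPA against no TPA they were 5 and 4 in sgControl, 6 and 4 in SKO and 4 and 4 in DKO. Between DKO and SKO they were 9 and 0 untreated and 7 and 2 under TPA, again each of 10. In THP-1, where GDF15 was lower, they were 1 and 5 in SKO and 1 and 6 in DKO, each of 10. The shares of all genes called there were 20.6% higher and 22.8% lower in SKO, and 31.9% and 33.7% in DKO. Of 11 tested, 3 were higher and 6 lower in MOLM-13 SKO, and 2 and 6 in OCI-AML-3 DKO. The shares of all genes called higher and lower were 34.1% and 36.5% in TPA DKO, 25.8% and 24.6% in TPA SKO, 33.2% and 34.5% in U937 DKO, 34.6% and 33.2% for TPA in sgControl, 31.8% and 32.2% in MOLM-13, and 24.3% and 25.6% in OCI-AML-3. For TPA they were 31.5% and 31.4% in SKO and 36.9% and 36.2% in DKO. Between DKO and SKO they were 24.1% and 24.9% untreated and 31.3% and 32.4% under TPA. Mitochondrially encoded genes summed to 45500 to 46820 CPM in sgControl and 23880 to 24080 CPM in DKO under TPA. Myeloid markers summed to 1322 to 1345 CPM in sgControl, 1286 to 1322 CPM in SKO and 1601 to 1654 CPM in DKO under TPA. The part of either in these results was not tested.

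TPA-treated and untreated U937 libraries were then set against each other, with the limit that treatment and count table cannot be told apart. In sgControl 7 of the 9 genes were higher under TPA and 0 lower, where 34.6% of all genes were higher and 33.2% lower. In SKO 6 were higher and 0 lower (31.5% and 31.4% of all genes), and in DKO 8 and 0 (36.9% and 36.2%). GDF15 had log2 fold changes of 8.08 ± 0.22, 8.32 ± 0.15 and 8.11 ± 0.11 in sgControl, SKO and DKO (edgeR adjusted p = 8.2e-28, 3.7e-33 and 1.8e-37). The sgControl value rests on 8, 0 and 0 reads before treatment, and was 12.47 without untreated replicate 1, against 0 reads, and 7.47 without replicate 2. CDKN1A had log2 fold changes of 4.54 ± 0.07, 4.93 ± 0.06 and 6.48 ± 0.06 (edgeR adjusted p = 7.9e-36, 4.8e-39 and 1.3e-42). Both genes thus had far higher levels under TPA whatever the label. Of the 10 myeloid markers 7 were higher and 0 lower under TPA in sgControl, with a summed level of 573 to 578 CPM before and 1322 to 1345 CPM under TPA, and their part was not tested.

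BTG2 (1.31, 1.12 and 1.09 in sgControl, SKO and DKO), SESN1 (1.40, 0.82 and 1.90), ZMAT3 (1.45, 1.14 and 2.17) and RRM2B (0.49, 0.22 and 0.68) were also higher under TPA in all 3 backgrounds by edgeR, on the log2 scale. MDM2 differed: its log2 fold changes were -0.08 ± 0.06 (edgeR adjusted p = 0.28), 0.08 ± 0.06 (edgeR adjusted p = 0.26) and 0.28 ± 0.06 (edgeR adjusted p = 1.7e-04), called in DKO alone. PHLDA3 rose in sgControl (1.64 ± 0.22, edgeR adjusted p = 3.0e-08). In SKO it missed the threshold (1.80 ± 0.81, edgeR adjusted p = 0.051) and passed it by DESeq2 (1.91, adjusted p = 0.034) and in 6 fits with 1 library left out (1.80 to 2.25). In DKO PHLDA3 was called (1.77 ± 0.60, edgeR adjusted p = 0.008) on at most 14 reads a library, and the value was 3.27 (edgeR adjusted p = 4.5e-04) without untreated DKO replicate 1, 1.17 (edgeR adjusted p = 0.067) without replicate 2 and 1.44 (edgeR adjusted p = 0.059) without treated replicate 1. TP53INP1 was called in none of the 3 (1.31 ± 0.70, edgeR adjusted p = 0.095, -0.09 ± 0.85, edgeR adjusted p = 0.94 and 0.11 ± 0.92, edgeR adjusted p = 0.92), and in sgControl was called in a fit of all 35 libraries (1.34, edgeR adjusted p = 0.0043). The medians of the 20 Mb bins holding BTG2 and PHLDA3 on chromosome 1 were 0.32 and 0.33 above all genes in sgControl.

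A difference of TPA responses does not carry a shift that is common to a table. For SKO minus sgControl 1 of the 9 genes differed upward and 2 downward, beside 19.6% and 18.1% of all genes. CDKN1A responded more in SKO by 0.39 ± 0.10 (edgeR adjusted p = 0.0016) on the log2 scale, which was 0.27 (edgeR adjusted p = 0.053) without untreated sgControl replicate 1. SESN1 (-0.59 ± 0.13, edgeR adjusted p = 3.6e-04) and RRM2B (-0.27 ± 0.08, edgeR adjusted p = 0.0065) responded less. For DKO minus sgControl 4 differed upward and 0 downward, beside 21.7% and 27.8%. CDKN1A differed most, by 1.94 ± 0.10 (edgeR adjusted p = 3.8e-18), followed by ZMAT3 (0.72 ± 0.22, edgeR adjusted p = 0.0071), SESN1 (0.50 ± 0.13, edgeR adjusted p = 0.0012) and MDM2 (0.35 ± 0.09, edgeR adjusted p = 8.9e-04). RRM2B (0.19 ± 0.08, edgeR adjusted p = 0.056) missed the threshold and passed it by DESeq2 (0.25, adjusted p = 0.0065), without untreated sgControl replicate 1 (0.24, edgeR adjusted p = 0.014) and without treated DKO replicate 2 (0.23, edgeR adjusted p = 0.026). GDF15, with the largest response of the 9, showed no called difference between backgrounds, at 0.24 ± 0.94 (edgeR adjusted p = 0.89) and 0.03 ± 0.61 (edgeR adjusted p = 0.98). Without untreated sgControl replicate 1, which held all 8 of that group's reads, both values turned to -4.15 (edgeR adjusted p = 0.039) and -4.36 (edgeR adjusted p = 0.015), set by the prior count.

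**Figure D4:**
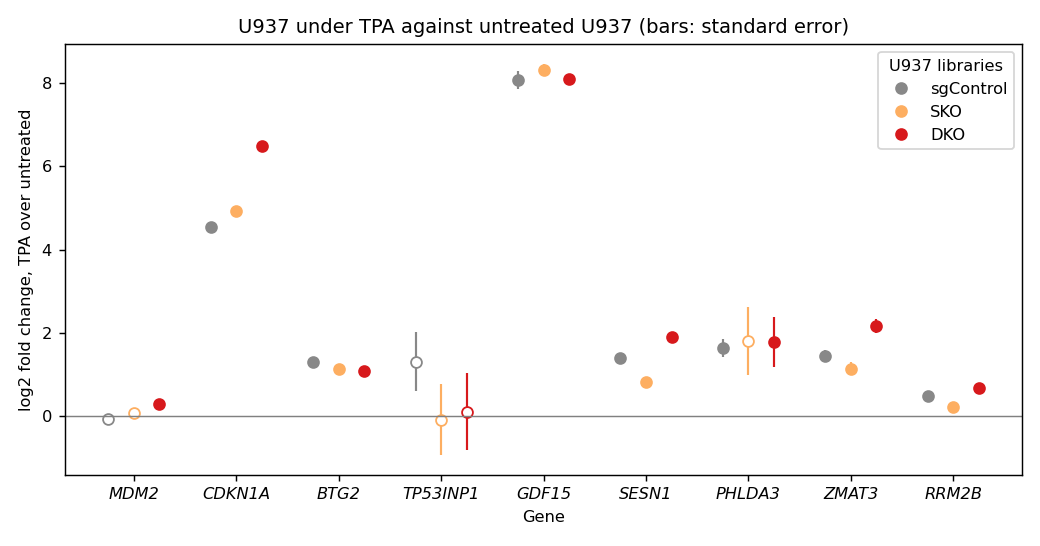
Log2 fold changes of the 9 genes under TPA against untreated U937 in sgControl, SKO and DKO. Filled points passed an edgeR adjusted p of 0.05, open points did not, and bars are standard errors. GDF15 and CDKN1A lie highest in all 3 backgrounds, and the step from sgControl to DKO is widest for CDKN1A (4.54 to 6.48).

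The knockout effects were compared between lines as differences of log2 fold changes, each taken within its own line and table. For the SKO label, MOLM-13 minus U937, 7 of the 9 genes had a larger effect in MOLM-13 and 1 a smaller one, where 15.8% and 19.2% of all genes did. PHLDA3, nearly lost in U937, differed most (6.93 ± 0.44, edgeR adjusted p = 1.1e-18). TP53INP1 differed by 2.14 ± 0.60 (edgeR adjusted p = 0.0032), a call that was lost without U937 sgControl replicate 3 (1.65, edgeR adjusted p = 0.07). ZMAT3 (1.49 ± 0.18, edgeR adjusted p = 1.6e-09), BTG2 (1.17 ± 0.13, edgeR adjusted p = 2.1e-10), MDM2 (1.14 ± 0.08, edgeR adjusted p = 9.2e-17) and SESN1 (0.63 ± 0.12, edgeR adjusted p = 3.5e-05) followed. CDKN1A, which rose in both lines, differed by 0.42 ± 0.11 (edgeR adjusted p = 0.0017). RRM2B was called with the opposite sign (-0.24 ± 0.09, edgeR adjusted p = 0.026), but not by DESeq2 (-0.17, adjusted p = 0.11) and not in 6 fits with 1 library left out (-0.23 to -0.14, edgeR adjusted p = 0.05 to 0.27; U937 sgControl 1 or 3, U937 SKO 1 or 3, MOLM-13 sgControl 2, MOLM-13 SKO 1). GDF15 was not called (1.89 ± 1.08, edgeR adjusted p = 0.19), and was without MOLM-13 sgControl replicate 2 (5.88, edgeR adjusted p = 0.044), then against 0 reads.

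For MOLM-13 minus THP-1, 8 genes had a larger SKO effect in MOLM-13 and 0 a smaller one, beside 18.4% and 19.3% of all genes. GDF15 (6.50 ± 0.63, edgeR adjusted p = 2.1e-12) and CDKN1A (4.64 ± 0.08, edgeR adjusted p = 1.9e-40) led, being lower in THP-1 SKO and higher in MOLM-13 SKO. The GDF15 value was 5.69 without MOLM-13 sgControl replicate 1 and 10.50 without replicate 2, the latter against 0 reads. BTG2 (3.27 ± 0.12, edgeR adjusted p = 1.6e-28), TP53INP1 (2.73 ± 0.24, edgeR adjusted p = 1.3e-13), MDM2 (1.16 ± 0.08, edgeR adjusted p = 6.3e-18), ZMAT3 (1.04 ± 0.15, edgeR adjusted p = 1.7e-07) and SESN1 (0.67 ± 0.11, edgeR adjusted p = 1.1e-06) were also called. PHLDA3 (0.64 ± 0.20, edgeR adjusted p = 0.0081) was not called without THP-1 sgControl replicate 1 (0.39, edgeR adjusted p = 0.11) or MOLM-13 SKO replicate 2 (0.55, edgeR adjusted p = 0.06). RRM2B (0.14 ± 0.08, edgeR adjusted p = 0.2) did not pass.

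For the DKO label, OCI-AML-3 minus U937, 7 genes had a larger effect in OCI-AML-3 and 0 a smaller one, beside 16.7% and 18.8% of all genes. PHLDA3 (7.05 ± 0.36, edgeR adjusted p = 9.1e-22; 8.56 without U937 DKO replicate 1 and 6.46 without replicate 2), TP53INP1 (3.71 ± 0.64, edgeR adjusted p = 4.5e-06; 3.12 without U937 DKO replicate 2 and 4.72 without replicate 3) and ZMAT3 (3.23 ± 0.19, edgeR adjusted p = 2.4e-19) led. CDKN1A (1.40 ± 0.11, edgeR adjusted p = 1.3e-14), MDM2 (1.33 ± 0.08, edgeR adjusted p = 8.4e-19), SESN1 (0.85 ± 0.13, edgeR adjusted p = 1.9e-07) and RRM2B (0.74 ± 0.09, edgeR adjusted p = 2.1e-09) were also called. The difference for BTG2 did not pass (-0.07 ± 0.13, edgeR adjusted p = 0.8). GDF15 was not called (-1.25 ± 0.58, edgeR adjusted p = 0.091), and was without U937 sgControl replicate 1 (-5.77, edgeR adjusted p = 3.5e-04), then against 0 reads. For OCI-AML-3 minus THP-1, 9 of 9 had a larger DKO effect in OCI-AML-3, beside 24.4% of all genes with a larger and 15.9% with a smaller one, and the differences ran from 0.65 ± 0.11 (SESN1, edgeR adjusted p = 3.3e-06) to 5.39 ± 0.26 (GDF15, edgeR adjusted p = 8.8e-23), with MDM2 at 1.58 ± 0.08 and CDKN1A at 4.81 ± 0.09. MDM2, ZMAT3, SESN1, TP53INP1, PHLDA3 and CDKN1A were called larger in MOLM-13 or OCI-AML-3 in all 4 of these comparisons. The 4 share knockout and control libraries in pairs, and the share of all genes called larger in all 4 was not counted. With 1 library left out, the TP53INP1 call of MOLM-13 minus U937 and the PHLDA3 call of MOLM-13 minus THP-1 were lost.

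**Figure D5:**
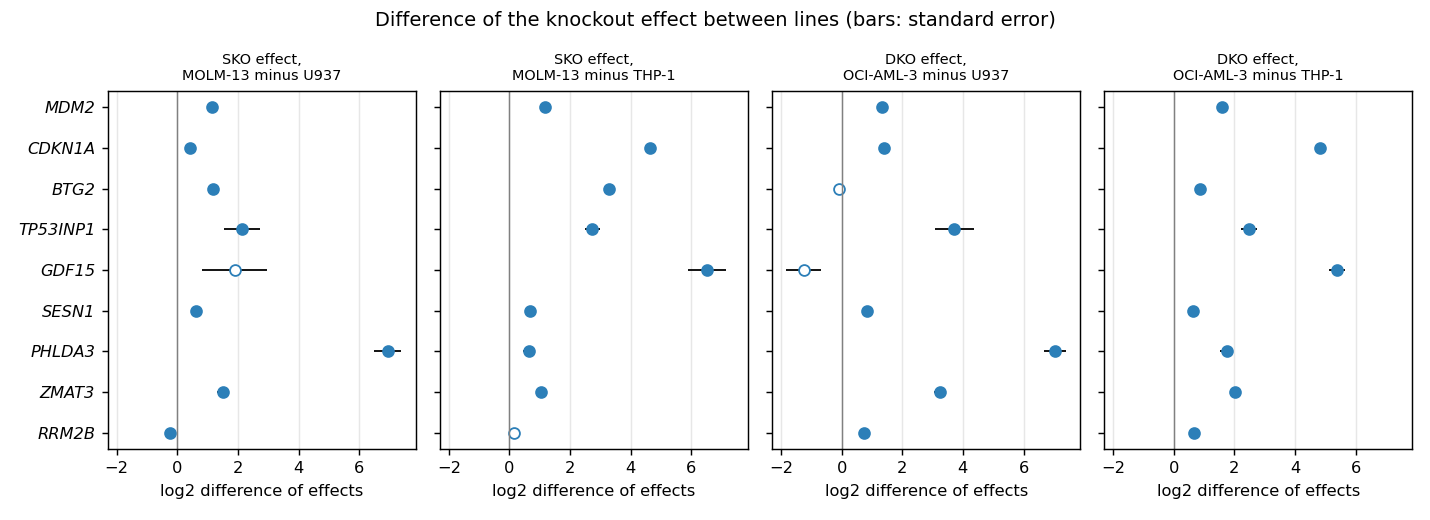
Differences between lines in the log2 fold change of the 9 genes, MOLM-13 minus U937 and minus THP-1 for the SKO label, and OCI-AML-3 minus U937 and minus THP-1 for the DKO label. Filled points passed an edgeR adjusted p of 0.05, open points did not, and bars are standard errors. MDM2 lies between 1.14 and 1.58 in the 4 comparisons, and PHLDA3 shows the largest differences against U937.

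Levels with the control guide were compared only between lines of 1 table. In THP-1 against U937, 9 of 9 genes were higher, beside 38.5% of all genes higher and 30.6% lower. GDF15 (5.78 ± 0.30, edgeR adjusted p = 5.7e-23; 10.28 without U937 sgControl replicate 1, against 0 reads, and 5.15 without replicate 2), CDKN1A (4.92 ± 0.07, edgeR adjusted p = 4.0e-46), TP53INP1 (4.27 ± 0.28, edgeR adjusted p = 3.4e-19) and BTG2 (2.90 ± 0.09, edgeR adjusted p = 5.6e-33) differed most on the log2 scale. MDM2 differed by 1.42 ± 0.05 (edgeR adjusted p = 2.6e-29). PHLDA3 was called at 0.47 ± 0.16 (edgeR adjusted p = 0.0069), and not without U937 sgControl replicate 2 (0.37, edgeR adjusted p = 0.061) or THP-1 sgControl replicate 1 (0.21, edgeR adjusted p = 0.24). In OCI-AML-3 against MOLM-13, 7 genes were lower and 1 higher, beside 26.5% and 27.3% of all genes. TP53INP1 (-2.95 ± 0.20, edgeR adjusted p = 2.4e-18), CDKN1A (-2.78 ± 0.07, edgeR adjusted p = 2.6e-36) and RRM2B (-1.89 ± 0.07, edgeR adjusted p = 2.9e-29) were the lowest against MOLM-13, and MDM2 differed by -0.54 ± 0.06 (edgeR adjusted p = 7.8e-11). GDF15 was higher in OCI-AML-3 (4.34 ± 0.54, edgeR adjusted p = 1.4e-09; 3.53 without MOLM-13 sgControl replicate 1 and 8.32 without replicate 2, against 0 reads), and BTG2 (0.03 ± 0.10, edgeR adjusted p = 0.83) was not called. OCI-AML-3 thus started below MOLM-13 for 7 of the genes that rose in both.

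Per kilobase of exon, which allows genes to be compared, CDKN1A stood at 1.44 CPM per kb in U937 sgControl, below RRM2B (5.66) and MDM2 (4.97). In MOLM-13 SKO it stood at 255 CPM per kb, against 36.9 for RRM2B, 28.2 for BTG2, 19.4 for MDM2 and 0.264 for GDF15. In U937 DKO under TPA it reached 409 CPM per kb, and GDF15 came next at 140.0. The order of groups differed by gene. MDM2 was highest in MOLM-13 SKO (161 ± 7.35 CPM, mean ± SD, n = 2), OCI-AML-3 DKO (116 ± 3.31, n = 2) and THP-1 sgControl (111 ± 1.59, n = 3) and lowest in U937 DKO (30.6 ± 1.78, n = 3). BTG2 was highest in MOLM-13 SKO (77.7 ± 2.63, n = 2) and THP-1 DKO (69.05 ± 2.16, n = 3). TP53INP1, RRM2B and SESN1 had their 2 highest means in the MOLM-13 groups, PHLDA3 and ZMAT3 in OCI-AML-3 DKO and MOLM-13 SKO, and GDF15 in the TPA-treated U937 DKO and SKO groups. Neighbouring groups in these orders overlapped in 1 of 12 pairs for CDKN1A, 3 for BTG2, 4 each for TP53INP1, GDF15 and RRM2B, and 5 each for MDM2, SESN1, PHLDA3 and ZMAT3.

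CDKN1A was set beside the other members to see whether it moved alone. In MOLM-13 and OCI-AML-3 the 8 other genes were all called in its direction. In U937 SKO 2 of the 7 other genes tested were called in its direction, 3 in the opposite one and 2 in neither, and their median log2 fold change was 0.03. In U937 DKO the counts were 2, 3 and 2, with a median of 0.02. The genes called with it were BTG2 in both, RRM2B in SKO and GDF15 in DKO. Of all genes 30.7% were higher and 31.2% lower in SKO, and 33.2% and 34.5% in DKO. In THP-1 SKO 4 of 8 fell with CDKN1A and 4 were not called (median -0.17), and in THP-1 DKO 2 fell with it and 3 rose (median 0.23). Of all genes 22.8% fell and 20.6% rose in THP-1 SKO, and 33.7% and 31.9% in DKO. Under TPA 2 of 8 rose with CDKN1A in SKO while 5 fell (median -0.37), and 4 rose in DKO while 3 fell (median 0.05). Of all genes 25.8% rose and 24.6% fell in SKO under TPA, and 34.1% and 36.5% in DKO. Over the 8 comparisons of a knockout label with sgControl, CDKN1A was called in 8 (6 higher, 2 lower) and BTG2 in 8 (7 higher, 1 lower). MDM2 was higher in 2, those of MOLM-13 and OCI-AML-3, and lower in 5. RRM2B was higher in 5 and lower in 0, but its calls in MOLM-13 SKO and THP-1 DKO were lost in a fit of all 35 libraries. The share of all genes called in all 8 was not counted. In U937 the 9 genes held 3 higher and 3 lower calls in SKO and again in DKO. Under TPA they held 3 and 5 in SKO and 5 and 3 in DKO. The other p53 targets held more higher than lower calls in U937. Of 31 tested, 15 were higher and 7 lower in SKO, 17 and 8 in DKO, 11 and 5 in TPA SKO and 16 and 10 in TPA DKO. The 5 other targets lower in TPA SKO became 3 without sgControl replicate 1 or SKO replicate 1. In THP-1, 8 were higher and 11 lower of 34 in SKO, and 9 and 16 in DKO. Their median log2 fold changes were 0.14 and 0.22 in U937 SKO and DKO, -0.03 and -0.13 in THP-1, and 0.02 and 0.15 in U937 under TPA. The difference of these lists between lines was not tested.

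Across the 13 group means, the genes whose log2 CPM followed CDKN1A most closely among 10909 genes were GABARAPL1, an autophagy adaptor (Pearson r = 0.945), TCIRG1, a proton pump subunit (0.93), KATNIP (0.923), ENTPD4 (0.914) and CCDC186 (0.906). Of the 8 other genes of the set, SESN1 (0.699), BTG2 (0.652) and GDF15 (0.643) came nearest and MDM2 (0.338) and PHLDA3 (0.223) were among the farthest. These values describe 13 groups that share lines and tables, and carry no test.

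On hg38 the rows other than CDKN1A lay, with their strand, as follows: MDM2 at chr12:68808177-68845544 (plus), BTG2 at chr1:203305491-203309602 (plus), TP53INP1 at chr8:94925972-94949378 (minus), GDF15 at chr19:18374731-18389176 (plus), SESN1 at chr6:108986437-109094819 (minus), PHLDA3 at chr1:201464278-201469237 (minus), ZMAT3 at chr3:178960121-179072215 (minus) and RRM2B at chr8:102204502-102238961 (minus). Each value counts reads over all annotated exons of the gene, UTRs included. Rows that share exon bases with these genes held few reads, with 1 exception. CPM (the carboxypeptidase M gene) overlaps MDM2 by 133 exon bases on the opposite strand, 1.6% of the MDM2 exons, and had up to 21138 reads in a library. Because counting did not use strand where the command is given, reads of the 2 genes over those bases cannot be told apart. RP11-611O2.5 and RP11-611O2.3 share 785 and 439 bases with MDM2, 9.45% and 5.29% of its exons, and had 0 reads. DINOL shares 146 bases with CDKN1A and had at most 9 reads. RP11-787I22.3 shares 363 with SESN1 and had at most 12, and RP11-134G8.10 shares 598 with PHLDA3 and had 0.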

How the data were processed

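The deposited values are read counts per gene. The tools named in the submitters' processing notes are fastp 0.23.4, STAR 2.7.11b and featureCounts 2.0.6 of Subread, with the hg38 build and GENCODE 38. Per the file headers, the authors counted by gene name without a strand option and without joining read pairs, so the deposited counts hold both ends of a fragment. That command is given for the table with untreated U937 and THP-1, and the other table has the same gene rows and lengths. The counts were used as deposited with edgeR 4.0.16 in R 4.3.3: filterByExpr, TMM scaling and quasi-likelihood tests, fitted per line and treatment over all its groups, with Benjamini-Hochberg adjustment over all genes tested (14915 in U937, 18585 in THP-1, 16246 in U937 under TPA, 15472 in MOLM-13, 16175 in OCI-AML-3, 16989 in U937 with and without TPA, 21649 over all libraries). Comparisons of TPA with no TPA used the 18 U937 libraries, and those between lines all 35. CPM were TMM-scaled over all 35 libraries. Alternatives were DESeq2 1.42.0, DESeq2 size factors, no filter on low counts, all 35 libraries in 1 fit, only the compared groups, a replicate block, leaving out each library, and, chosen after seeing the data, a term for the run code in 3 untreated U937 library names. No library was identical to another, and replicates differed beyond sampling noise (chi-square per gene 1.515 to 6.427 over 31 pairs). The fits of untreated U937, of MOLM-13 and of all 35 libraries were tested on simulated counts, and the other fits were not. The 9 genes, the gene lists and the naming rule were chosen with earlier results of these data known. The rule names SUV39H1 and SUV39H2, the 9 genes, MDM4, up to 3 genes per list and comparison with the largest called change, and 5 genes most correlated with CDKN1A over group means. 1 further gene of the rule is not reported here.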

Additional observations from a re-analysis of the deposited data

Results flagged for a closer look

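Several of the 9 genes had knockout or TPA effects that differed between backgrounds by a test of the difference itself (edgeR interaction term, adjusted p below 0.05). The values are differences of log2 fold changes. The TPA response in SKO minus that in sgControl was 0.39 for CDKN1A, -0.59 for SESN1 and -0.27 for RRM2B. The response in DKO minus that in sgControl was 1.94 for CDKN1A, 0.72 for ZMAT3, 0.50 for SESN1 and 0.35 for MDM2.

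The SKO effect in MOLM-13 minus that in U937 was 6.93 for PHLDA3, 2.14 for TP53INP1, 1.49 for ZMAT3, 1.17 for BTG2, 1.14 for MDM2, 0.63 for SESN1, 0.42 for CDKN1A and -0.24 for RRM2B. Minus that in THP-1 it was 6.50 for GDF15, 4.64 for CDKN1A, 3.27 for BTG2, 2.73 for TP53INP1, 1.16 for MDM2, 1.04 for ZMAT3, 0.67 for SESN1 and 0.64 for PHLDA3.

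The DKO effect in OCI-AML-3 minus that in U937 was 7.05 for PHLDA3, 3.71 for TP53INP1, 3.23 for ZMAT3, 1.40 for CDKN1A, 1.33 for MDM2, 0.85 for SESN1 and 0.74 for RRM2B. Minus that in THP-1 it was 5.39 for GDF15, 4.81 for CDKN1A, 2.49 for TP53INP1, 2.03 for ZMAT3, 1.75 for PHLDA3, 1.58 for MDM2, 0.87 for BTG2, 0.68 for RRM2B and 0.65 for SESN1. Groups had 2 or 3 libraries, too few for a test of single outlying libraries.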

How the results depend on the processing

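Counts of the 9 genes called stayed within 1.5 times their value under the alternatives run. Of the single-gene values, those that kept their direction and side of the threshold, gained a call or lost one numbered 188, 5 and 2 under DESeq2, 190, 4 and 1 under DESeq2 size factors, 192, 1 and 2 without the filter on low counts, and 134, 3 and 4 in 1 fit of all 35 libraries. With only the compared groups 128 of 128 kept their call, and with the run code term, chosen after seeing the data, 24 of 24. Same-numbered libraries did not deviate together (correlations of -0.054 to 0.058), so the replicate numbers were not taken as pairs, and a replicate block kept 194 values and added 1, RRM2B in the TPA response of DKO minus sgControl (0.19, edgeR adjusted p = 0.04). Leaving out 1 library kept 1989 values, gained 18 and lost 25 calls, and reversed 2: without U937 sgControl replicate 1 the GDF15 differences of TPA response were -4.15 (SKO) and -4.36 (DKO), with 0 GDF15 reads left in that group, and without replicate 2 they were 0.85 and 0.64. MDM2 between U937 DKO and SKO was called without SKO replicate 1 (-0.18, edgeR adjusted p = 0.032). Depth limits GDF15 in untreated U937 and in MOLM-13, PHLDA3 in U937 SKO and DKO with and without TPA, and TP53INP1 in U937. Libraries there held 0 to 40 reads.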

Other observations

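Relatives of p53 were also looked at. TP63, which encodes p63, stood at 0.218 ± 0.101 CPM in THP-1 sgControl (mean ± SD, n = 3), 4.76 ± 0.787 CPM in SKO and 3.31 ± 0.569 CPM in DKO, log2 fold changes of 4.46 and 4.03 (edgeR adjusted p = 1.7e-14 and 1.3e-13). In OCI-AML-3 TP63 went from 2.17 CPM in sgControl to 0.289 CPM in DKO, a log2 fold change of -2.88 (edgeR adjusted p = 9.0e-10), and MOLM-13 had 0 reads. TP73, which encodes p73, had mean levels of 29.9, 20.96 and 16.5 CPM in THP-1 sgControl, SKO and DKO, given without a test and for this line only. These genes share binding letters with p53 and were chosen after their values were seen.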
